A study of Homo sapiens with 24 samples.

Results

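NF-kB is a family of dimeric transcription factors, and the 10 genes described here code for its subunits and for regulators that switch it on and off. They are the subunit genes RELA, REL, RELB, NFKB1 and NFKB2, the inhibitor genes NFKBIA and TNFAIP3, and BIRC3, TRAF3 and MAP3K14, which set the activity of the noncanonical arm. They were taken by symbol from the 25341 genes listed by name, and all 10 were among the 15113 genes that passed the filter on low values. Expression was measured by RNA sequencing of total RNA in 4 established multiple myeloma lines (KMS-12-PE, KMS-12-BM, MM1S and MM1R), grown in RPMI medium with fetal bovine serum. In each line, 3 libraries came from cells electroporated with a pool of siRNAs against IRF4 and labelled siIRF4 at 48 hours, and 3 from cells labelled CTRL, with DMSO as treatment at 0 hours. No control siRNA is named, so IRF4 loss, siRNA delivery, electroporation, DMSO and time in culture cannot be told apart in any comparison of siIRF4 with CTRL. MM1R and MM1S descend from a line of one patient, MM1R being its glucocorticoid-resistant form. KMS-12-BM and KMS-12-PE came from the bone marrow and the pleural effusion of another patient. Whether the replicates of a group were grown as separate cultures is not stated, so a p-value here measures the spread between libraries, which may be technical.

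NF-kB dimers wait in the cytoplasm bound to inhibitors of the IkB family. In the canonical arm, receptors activate the IKK kinase complex, IkB alpha (made from NFKBIA) is destroyed, and dimers of RELA or REL with p50, the product of NFKB1, enter the nucleus. In the noncanonical arm, TRAF3 and the ubiquitin ligases BIRC2 and BIRC3 keep the kinase NIK (made from MAP3K14) at a low level, and NIK that escapes them drives the processing of p100, the product of NFKB2, to p52, which pairs with RELB. Plasma cells receive such signals from TNF-family receptors, and myeloma carries recurrent lesions of both arms, among them losses of TRAF3 and BIRC3 and gains of MAP3K14. NFKBIA, TNFAIP3, BIRC3 and several subunit genes are themselves NF-kB targets, which closes feedback loops.

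Proximal promoters are shown for REL and for NFKBIA, TNFAIP3 and BIRC3, which are known NF-kB targets. RefSeq (GRCh38.p14) gave promoters for 9 of the 10 members, RELB being the other. The windows ran from 250 bases before to 50 bases after each transcription start. The files used hg19, so these coordinates belong to RefSeq and not to the data. The 10-base kappa B motif, which NF-kB dimers bind, was searched on both strands. It was present in the windows of 7 members (REL, NFKB1, NFKB2, NFKBIA, TNFAIP3, BIRC3 and TRAF3), at 8 of the 13 starts of the 9 members, and in 11.3% of all 35116 promoter windows. Capitals mark it in the 250 bases before the start of REL (chr2:60881324-60881573, plus strand), NFKBIA (chr14:35404750-35404999, minus strand), TNFAIP3 (chr6:137867009-137867258, plus strand) and BIRC3 (chr11:102317234-102317483, plus strand), each written 5′ to 3′ along the gene.
REL: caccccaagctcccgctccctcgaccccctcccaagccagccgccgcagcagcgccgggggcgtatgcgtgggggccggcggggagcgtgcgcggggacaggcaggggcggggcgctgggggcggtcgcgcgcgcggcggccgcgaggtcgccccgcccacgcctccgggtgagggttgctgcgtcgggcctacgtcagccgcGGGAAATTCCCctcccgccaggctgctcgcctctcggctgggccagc
NFKBIA: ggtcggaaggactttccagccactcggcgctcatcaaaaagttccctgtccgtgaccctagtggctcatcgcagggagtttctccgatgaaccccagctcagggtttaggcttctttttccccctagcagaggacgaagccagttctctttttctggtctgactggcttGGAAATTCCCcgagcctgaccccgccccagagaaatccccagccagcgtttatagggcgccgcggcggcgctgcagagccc
TNFAIP3: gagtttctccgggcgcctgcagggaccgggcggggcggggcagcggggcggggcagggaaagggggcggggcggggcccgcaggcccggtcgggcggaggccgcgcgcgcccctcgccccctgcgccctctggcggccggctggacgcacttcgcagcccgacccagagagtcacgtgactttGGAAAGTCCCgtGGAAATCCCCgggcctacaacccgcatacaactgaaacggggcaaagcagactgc
BIRC3: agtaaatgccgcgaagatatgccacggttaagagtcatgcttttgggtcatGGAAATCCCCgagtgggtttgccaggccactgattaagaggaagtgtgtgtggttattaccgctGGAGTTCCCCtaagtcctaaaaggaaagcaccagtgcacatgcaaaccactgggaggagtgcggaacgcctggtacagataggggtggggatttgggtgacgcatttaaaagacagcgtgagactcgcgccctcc
In REL a match began 47 bases before the start, and a second one, on the opposite strand, began 46 bases before it. The capitals cover both. In the other genes shown all matches lay on the opposite strand, and TNFAIP3 and BIRC3 each had 2 matches. TRAF3 carried GGGGATTTCC from 33 bases before its start, and NFKB1 carried GGGAATTTCC from 49 bases before 1 of its 2 starts. No kappa B match was found at RELA or MAP3K14. Elements bound by IRF4 were rarer. The ETS-IRF composite element (GGAANNGAAA, both strands) was in 2.82% of all windows, the interferon-stimulated response element (GAAANNGAAA, both strands) in 3.57%, and among the members both were found only at 1 of the 2 RELA starts. The letters of these motifs can overlap in a window. A match describes letters in a window and is not evidence of binding.

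Reads recovered from the deposited values came to between 17.3 and 27.4 M per library. IRF4 itself was lower in every siIRF4 library than in every CTRL library of the same line. In MM1R, where the difference was smallest, the mean was 380.3 TPM in CTRL and 291 TPM in siIRF4. The pair of means was 283.4 and 140.5 TPM for MM1S, 360.8 and 222.3 TPM for KMS-12-BM, and 327.4 and 155.3 TPM for KMS-12-PE. TPM is a read count divided by transcript length and scaled to the same total in each library, so it can be compared between genes. Of 9 plasma cell markers 8 were listed, and all 8 were above 1 TPM in every group, although KMS-12-BM CTRL had only 6.05 TPM of SDC1 (CD138) and 1.76 TPM of SLAMF7. Each line also held some markers of other cells. All 5 stromal markers were above 1 TPM in CTRL of both, with summed levels of 55.5 to 122.2 TPM in MM1S and 56.2 to 85.6 TPM in KMS-12-PE, against at most 0.767 TPM in CTRL of MM1R and KMS-12-BM. Of the 4 epithelial markers, KRT5 was at 50.9 and 55.8 TPM and KRT14 at 48.3 and 52.3 TPM in CTRL of MM1S and KMS-12-PE, whereas EPCAM was at 146.1 TPM in KMS-12-BM and 129.1 TPM in KMS-12-PE, and KRT8 at 66.7 TPM in KMS-12-BM. Of 5 myeloid markers, S100A8 and S100A9 were above 1 TPM in MM1S and KMS-12-PE, and S100A9 alone in MM1R (24.8 TPM). HBB was at 25.95 TPM in MM1R and 10.7 TPM in MM1S, HBA1 at 20.1 TPM and NKG7 at 12.2 TPM in KMS-12-BM, and CD3E at 5.01 to 9.51 TPM in CTRL of the other lines.

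The 4 lines differed widely in which NF-kB genes they expressed without knock down. KMS-12-PE had the lowest levels of NFKB2, RELB, BIRC3 and MAP3K14, and the MM1 lines had little REL. In CTRL, the summed TPM of the 5 subunit genes was 301.6 ± 11.4 for MM1R, 316.9 ± 14.9 for MM1S, 456.7 ± 5.86 for KMS-12-BM and 336.3 ± 20.1 for KMS-12-PE (mean ± SD, n = 3). NFKB2 made up 44.6% of this sum in MM1R, 40.5% in MM1S and 28.2% in KMS-12-BM, but 5.56% in KMS-12-PE. RELA, the transactivating subunit of the canonical arm, made up 25.7%, 24.96%, 32.0% and 55.6% in the same order. REL, the subunit c-Rel of lymphoid cells, made up 0.143%, 0.246%, 3.47% and 6.07%.

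**Figure D1:**
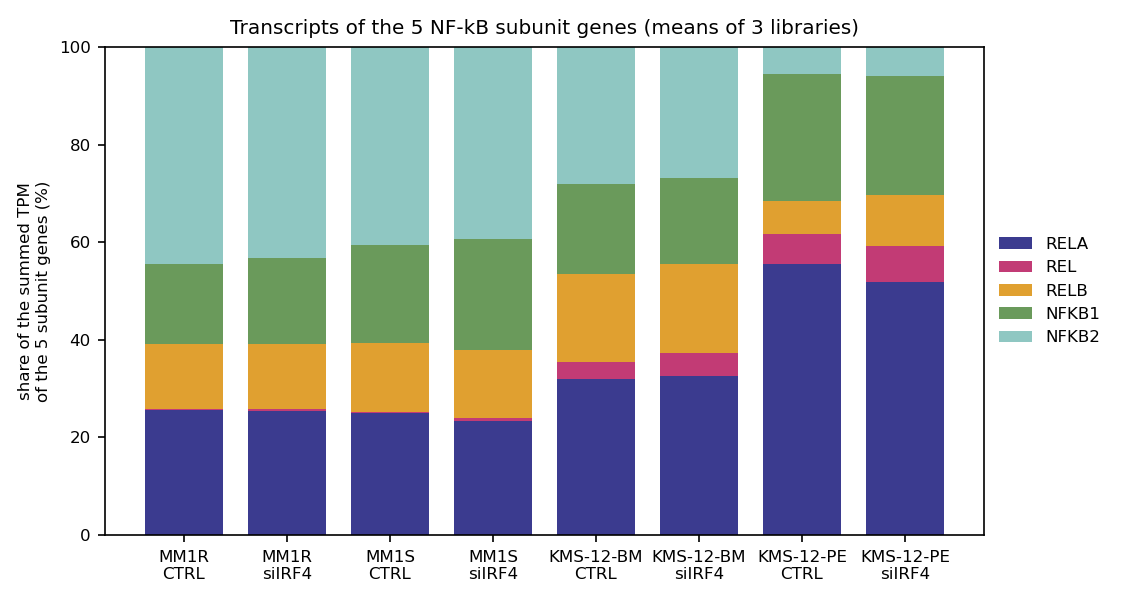
Bars show, for each group, the share (%) of the summed TPM of the 5 NF-kB subunit genes that came from each gene, as means of 3 libraries. NFKB2 is the largest part in MM1R and MM1S (44.6% and 40.5% in CTRL), and RELA in KMS-12-PE (55.6% in CTRL).

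REL showed the widest range over the lines. Its CTRL libraries were at 0.353, 0.366 and 0.586 TPM in MM1R, at 0.627, 0.863 and 0.852 TPM in MM1S, at 15.55, 16.4 and 15.51 TPM in KMS-12-BM and at 22.0, 21.2 and 18.1 TPM in KMS-12-PE. The highest line mean was 47.0 times the lowest, and the MM1 values rested on 24 to 66 reads per library. The other canonical subunits varied less: RELA means were 187.1 TPM for KMS-12-PE, 146.1 for KMS-12-BM, 79.1 for MM1S and 77.4 for MM1R, the last pair not differing beyond their spread (limma adjusted p = 0.62). NFKB1 had the narrowest range, from 49.0 TPM in MM1R to 87.1 TPM in KMS-12-PE, and KMS-12-PE and KMS-12-BM did not differ beyond their spread (adjusted p = 0.30).

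Of the noncanonical arm, NFKB2, MAP3K14, RELB and BIRC3 set KMS-12-PE apart from the other lines. TRAF3 did not, at 32.5 TPM there against 22.1 TPM in MM1S and 21.9 TPM in MM1R. NFKB2 libraries lay at 16.7 to 20.1 TPM in KMS-12-PE CTRL, with a mean of 18.7 TPM, against means of 134.5 TPM in MM1R, 128.7 TPM in KMS-12-BM and 128.5 TPM in MM1S, which did not differ from their neighbours (adjusted p = 0.37 and 0.96). MAP3K14 was at 6.69 TPM in KMS-12-PE, 28.7 in MM1R, 29.05 in MM1S and 38.5 in KMS-12-BM. Only MM1R and MM1S, of the neighbours in this order, did not differ beyond their spread (adjusted p = 0.83). RELB (22.9 TPM) and BIRC3 (12.9 TPM) were also lowest in KMS-12-PE. RELB was highest in KMS-12-BM (82.4 TPM), followed by MM1S (44.8 TPM) and MM1R (40.3 TPM). BIRC3 was highest in MM1S (60.4 TPM), followed by MM1R (37.8 TPM) and KMS-12-BM (33.0 TPM).

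KMS-12-BM was highest in TRAF3 and NFKBIA and lowest in TNFAIP3. TRAF3 stood at 78.5 TPM there, at 32.5 TPM in KMS-12-PE and at 22.1 and 21.9 TPM in MM1S and MM1R. NFKBIA, the gene of IkB alpha, was at 161.3 TPM in KMS-12-BM, 56.6 TPM in KMS-12-PE, 39.8 TPM in MM1S and 36.6 TPM in MM1R. MM1S and MM1R did not differ beyond their spread in TRAF3 (adjusted p = 0.80) or in NFKBIA (adjusted p = 0.16). TNFAIP3, which codes for the ubiquitin-editing inhibitor A20, was at 16.8 TPM in KMS-12-BM, with libraries from 15.7 to 17.6 TPM, and at 106.1, 144.7 and 167.8 TPM in KMS-12-PE, MM1S and MM1R.

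Over the 10 genes, 23 of 30 neighbours in the order of CTRL means differed at an adjusted p under 0.05. The number of members that differed was 5 between MM1R and MM1S, where 57.3% of all genes tested were called. It was 9 between MM1R and KMS-12-BM (81.5% of all genes), 10 between MM1R and KMS-12-PE (81.9%), 9 between MM1S and KMS-12-BM (83.5%), 10 between MM1S and KMS-12-PE (79.3%) and 9 between KMS-12-BM and KMS-12-PE (77.3%). For the mean of the MM1 lines against the mean of the KMS-12 lines it was 9 (85.2%). These counts are near what the lines showed over all genes. The call of TNFAIP3 between MM1R and MM1S was lost without any of 3 libraries (adjusted p = 0.065 to 0.12), that of RELB without MM1S CTRL replicate 3 (adjusted p = 0.099), and with MM1R CTRL replicate 1 left out 3 members differed between these lines. BIRC3 between MM1R and KMS-12-BM lost its call without the same library (log2 difference 0.12 rather than 0.19, adjusted p = 0.093).

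With siIRF4, 6 members rose in MM1R and the same 6 in MM1S (REL, NFKB1, NFKBIA, TNFAIP3, BIRC3 and TRAF3), 6 rose in KMS-12-PE (REL, RELB, NFKB2, NFKBIA, TNFAIP3 and BIRC3), and in KMS-12-BM REL rose while NFKBIA and MAP3K14 fell. REL was the member that rose in every line. No member fell in MM1R, MM1S or KMS-12-PE by limma, at an unadjusted p under 0.05 or by limma-voom on recovered reads (0 in each). The share of all genes tested that rose and fell was 25% and 21.2% in MM1R, 29.1% and 21.1% in MM1S, 11.4% and 6.09% in KMS-12-BM, and 15.9% and 22.2% in KMS-12-PE. The median log2 change of the 10 members was 0.14, 0.25, -0.06 and 0.20 in the same order, beside 0.03, 0.04, 0.04 and -0.02 over all genes. In the average of the 4 lines with equal weights, 7 members rose and MAP3K14 fell, against 33.1% and 26.5% of all genes, and RELA and NFKB2 were not called. The median change in the average was 0.15 for the members and 0.02 for all genes.

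**Figure D2:**
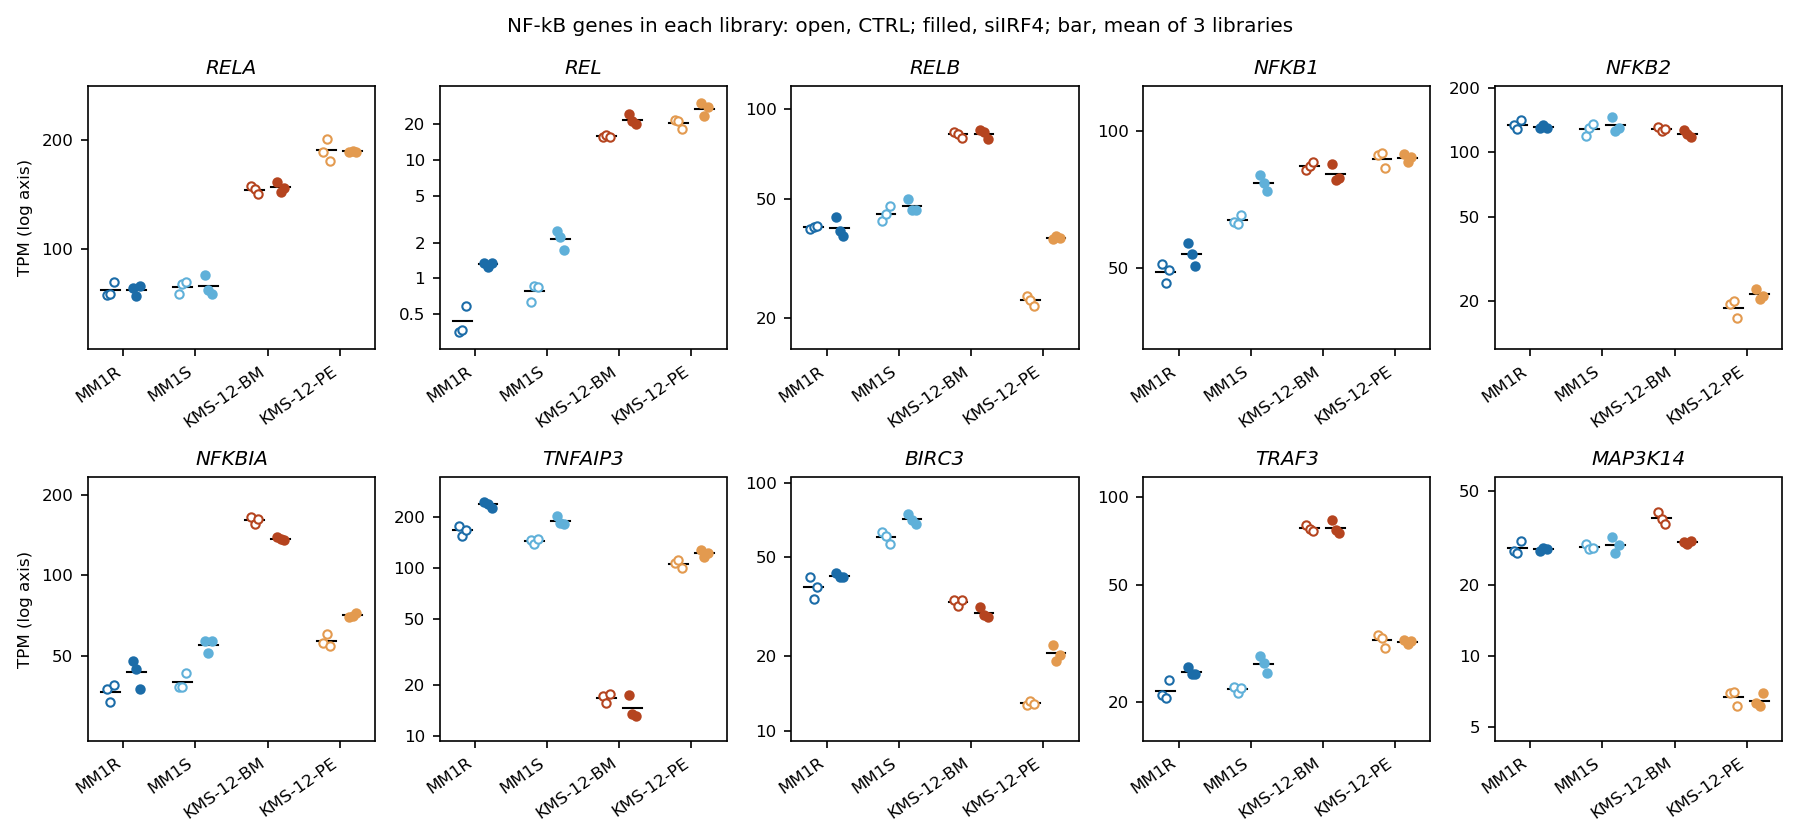
Each panel gives 1 gene, with TPM on a log axis. Open points are CTRL and filled points siIRF4 libraries, 3 for each line, with a bar at their mean. REL lies above CTRL in all siIRF4 libraries of each line, and RELB and BIRC3 are raised in KMS-12-PE (means 22.9 to 37.2 TPM and 12.9 to 20.5 TPM).

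Of the canonical subunits, REL changed most. In MM1R the siIRF4 libraries were at 1.35, 1.26 and 1.35 TPM (91 to 124 reads), 3.03 times the CTRL mean, a log2 change of 0.69 ± 0.10 (SE) on the log2(TPM + 1) scale (limma adjusted p = 9.8e-06). In MM1S they were at 2.51, 2.24 and 1.75 TPM, 2.78 times CTRL (0.83 ± 0.10, adjusted p = 7.9e-07). All siIRF4 libraries lay above all CTRL libraries in both lines, and the added 1 TPM understates these changes, which were 1.43 and 1.36 with 0.1 TPM added instead. In KMS-12-BM the siIRF4 libraries stood at 24.3, 21.3 and 20.3 TPM, 1.39 times CTRL (0.45 ± 0.10, adjusted p = 0.0039), and in KMS-12-PE at 30.1, 23.3 and 28.0 TPM, 1.33 times CTRL (0.39 ± 0.10, adjusted p = 0.0046). The groups did not overlap there either.

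The low REL levels of the MM1 lines were set beside those of 10 genes picked for being lowest in the same libraries. These were the 10 lowest among the 4399 genes with at least 30 TPM in CTRL of both KMS-12 lines. REL itself did not reach that level, with CTRL means of 15.8 TPM in KMS-12-BM and 20.4 TPM in KMS-12-PE. Their median was 0.579% of their KMS-12 CTRL level in MM1R CTRL and 0.943% in MM1R siIRF4. In MM1S it was 0.514% in CTRL and 0.556% in siIRF4. The highest group mean of any of these genes was 1.33%, in MM1R siIRF4. REL stood at 2.40% and 7.26% of its KMS-12 level in MM1R CTRL and siIRF4, and at 4.31% and 11.96% in MM1S. Because the 10 genes were picked as the lowest, other genes lie above them by selection. Whether reads from other libraries add to REL in the MM1 lines was not tested.

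RELA passed the test in no line. Its log2 difference was 0.002 for MM1R, 0.0004 for MM1S, 0.02 for KMS-12-BM and -0.005 for KMS-12-PE, each ± 0.05, and the average of the lines was 0.005 with a 95% interval from -0.05 to 0.06. NFKB1 rose in MM1S, from 63.1, 62.6 and 65.5 TPM to 80.1, 77.0 and 73.9 TPM (0.27 ± 0.05, adjusted p = 6.0e-05), with no overlap. In MM1R it went from 51.2, 46.5 and 49.5 TPM to 56.9, 53.7 and 50.6 TPM (0.13 ± 0.05, adjusted p = 0.029). The groups overlapped there, and the call was lost without MM1R CTRL replicate 2 or siIRF4 replicate 1 or 2 (adjusted p = 0.063 to 0.18). NFKB1 was not called in the KMS-12 lines, with log2 differences of -0.05 for KMS-12-BM and 0.007 for KMS-12-PE.

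The noncanonical subunits moved in KMS-12-PE, the line where they were lowest. RELB went from 23.8, 22.96 and 22.0 TPM to 36.9, 37.8 and 37.0 TPM, 1.62 times CTRL (0.68 ± 0.05, adjusted p = 1.1e-09), and the siIRF4 libraries were far above the CTRL libraries. They were still below the CTRL libraries of the other lines, of which the lowest was 39.8 TPM. In MM1R, MM1S and KMS-12-BM the log2 differences of RELB were -0.009, 0.08 and 0.009, and the groups overlapped. NFKB2 in KMS-12-PE went from 19.4, 20.1 and 16.7 TPM to 22.9, 20.5 and 21.2 TPM (0.20 ± 0.06, adjusted p = 0.018). The groups did not overlap, although the highest CTRL library (20.1 TPM) was close to the lowest siIRF4 library (20.5 TPM). Without KMS-12-PE CTRL replicate 3 the change was 0.12 (adjusted p = 0.14), and without KMS-12-PE siIRF4 replicate 1 the adjusted p was 0.098. With only the groups compared in the fit the adjusted p was 0.0999. NFKB2 was not called in MM1R, MM1S or KMS-12-BM, with log2 differences of -0.03, 0.06 and -0.07.

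Among the regulators of the noncanonical arm, BIRC3, which codes for the ubiquitin ligase cIAP2, rose most in KMS-12-PE. It went there from 12.7, 13.2 and 12.8 TPM to 22.1, 19.2 and 20.2 TPM, 1.59 times CTRL (0.63 ± 0.06, adjusted p = 8.9e-08). In MM1S it went from 63.5, 61.0 and 56.8 TPM to 75.1, 70.5 and 68.4 TPM (0.24 ± 0.06, adjusted p = 0.0033). Neither line had overlapping groups. In MM1R the CTRL libraries at 41.6, 34.0 and 37.9 TPM overlapped with siIRF4 at 43.1, 41.5 and 41.8 TPM (0.16 ± 0.06, adjusted p = 0.048). That call was lost without any of 16 of the 24 libraries (adjusted p = 0.050 to 0.31), and the change was 0.08 without MM1R CTRL replicate 2. It was also lost with 0.1 TPM added (adjusted p = 0.052) and with no filter (0.068). The same held with a prior neither trended nor robust (0.056) and with only the groups compared in the fit (0.11). In KMS-12-BM BIRC3 had a log2 difference of -0.14 (adjusted p = 0.13).

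TRAF3, the adaptor that brings NIK to its ligases, rose in the MM1 lines. It went from 21.1, 20.6 and 23.7 TPM to 26.2, 24.9 and 24.9 TPM in MM1R (0.21 ± 0.05, adjusted p = 0.0032) and from 22.5, 21.5 and 22.4 TPM to 28.7, 27.1 and 25.2 TPM in MM1S (0.28 ± 0.05, adjusted p = 0.00022), without overlap. In the KMS-12 lines it was not called, with log2 differences of 0.005 for KMS-12-BM and -0.01 for KMS-12-PE. MAP3K14, the gene of NIK, fell in KMS-12-BM from 40.9, 38.3 and 36.4 TPM to 30.4, 29.8 and 30.9 TPM, 0.788 of CTRL (-0.33 ± 0.06, adjusted p = 0.00072), also without overlap. In MM1R, MM1S and KMS-12-PE its log2 differences were -0.01, 0.03 and -0.04. The gene MAP3K14-AS1 lies antisense to it, and its mean in KMS-12-BM was 5.40 TPM in CTRL and 6.96 TPM in siIRF4 (adjusted p = 0.13). It was called higher in MM1R (adjusted p = 0.015), MM1S (0.0015), KMS-12-PE (0.026) and the average (0.44 ± 0.07, adjusted p = 1.7e-05). The strand setting of the counting is not given in the sources used here, so reads of the pair cannot be told apart.

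The feedback inhibitors rose in 3 lines. TNFAIP3 in MM1R went from 178.7, 155.6 and 169.1 TPM to 247.2, 241.8 and 228.3 TPM, 1.43 times CTRL (0.51 ± 0.08, adjusted p = 1.6e-05), and in MM1S from 146.2, 138.9 and 149.0 TPM to 203.7, 186.2 and 183.7 TPM, 1.32 times CTRL (0.40 ± 0.08, adjusted p = 0.00022). In KMS-12-PE it went from 106.8, 111.3 and 99.98 TPM to 128.8, 115.6 and 122.6 TPM (0.20 ± 0.08, adjusted p = 0.045). The groups did not overlap in these lines. The call in KMS-12-PE was lost without any of 10 libraries, 6 of them of other lines, and without KMS-12-PE CTRL replicate 3 the change was 0.16 (adjusted p = 0.17). It was also lost with 0.1 TPM added (adjusted p = 0.053), with no filter (0.071) and with a prior neither trended nor robust (0.060). In KMS-12-BM TNFAIP3 was at 17.2, 15.7 and 17.6 TPM in CTRL and at 17.4, 13.5 and 13.1 TPM in siIRF4 (-0.20 ± 0.08, adjusted p = 0.090), and without siIRF4 replicate 1 it was called lower (-0.32, adjusted p = 0.0024).

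NFKBIA rose in 3 lines and fell in KMS-12-BM, the line where it was highest. It went from 38.2, 38.1 and 43.0 TPM to 56.6, 51.2 and 56.6 TPM in MM1S (0.45 ± 0.07, adjusted p = 1.3e-05), and from 55.6, 60.0 and 54.3 TPM to 69.7, 70.5 and 72.3 TPM in KMS-12-PE (0.32 ± 0.07, adjusted p = 0.0010). Neither had overlapping groups. In MM1R it went from 37.4, 33.6 and 38.9 TPM to 47.9, 44.5 and 37.6 TPM (0.23 ± 0.07, adjusted p = 0.0092), with an overlap, and the call was lost without MM1R CTRL replicate 2 or siIRF4 replicate 1 (adjusted p = 0.068 and 0.083). In KMS-12-BM NFKBIA fell from 165.6, 155.8 and 162.6 TPM to 139.3, 136.4 and 135.5 TPM (-0.23 ± 0.07, adjusted p = 0.024). The groups did not overlap, but the call was lost without any 1 of the KMS-12-BM libraries other than CTRL replicate 2 (adjusted p = 0.052 to 0.084).

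Scaling bears on KMS-12-BM. With TPM as deposited, 1730 genes rose and 920 fell in that line. With median-of-ratios scaling 1382 rose and 1472 fell, and 4 members fell rather than 2, TNFAIP3 (-0.23, adjusted p = 0.018) and BIRC3 (-0.18, adjusted p = 0.020) being added. Limma-voom on recovered reads called the same 4 members lower (TNFAIP3 at an adjusted p of 0.023 and BIRC3 at 0.0062).

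**Figure D3:**
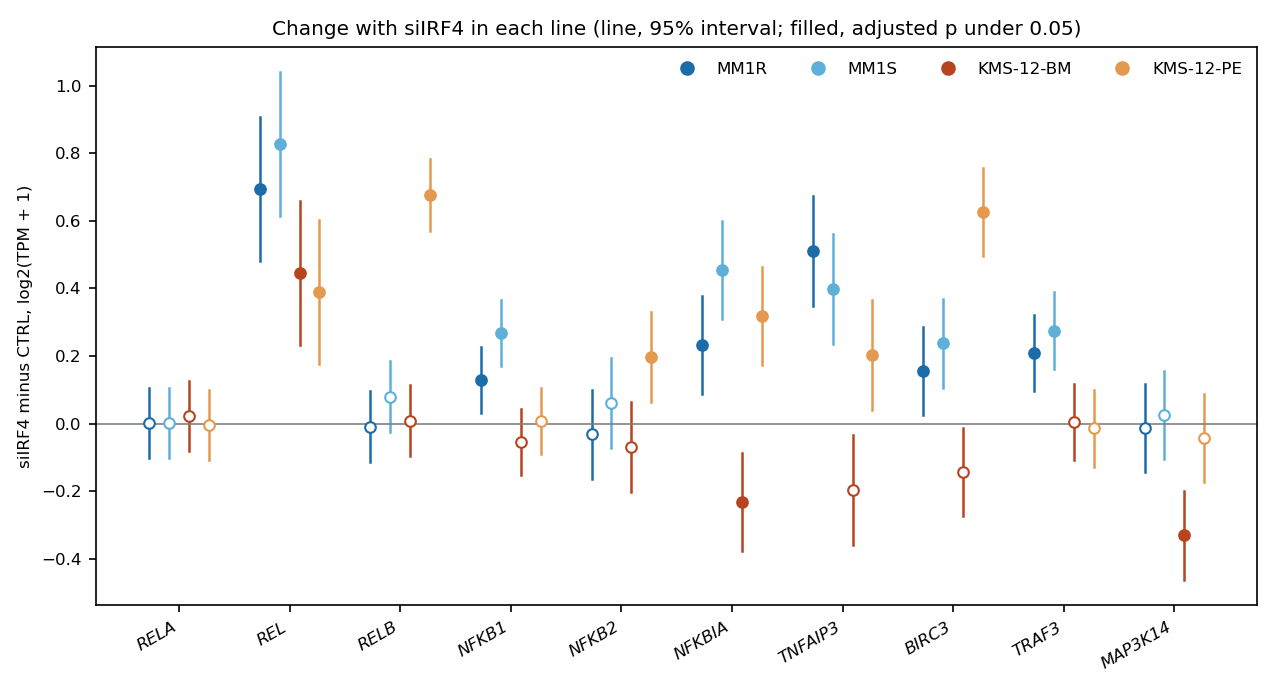
Points give the change with siIRF4 in each line, siIRF4 minus CTRL in log2(TPM + 1), and lines its 95% interval from limma. Filled points passed an adjusted p of 0.05. REL is above 0 in the 4 lines, RELA is at 0, and RELB and BIRC3 stand out in KMS-12-PE (0.68 and 0.63).

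The related lines were compared in their response. Between MM1R and MM1S no member differed by limma (0 of 10, beside 2.47% of all genes). At an unadjusted p under 0.05, 2 members, NFKB1 and NFKBIA, had a smaller change in MM1R, and limma-voom gave 1 such member unadjusted and 0 adjusted. The intervals of the difference were wide: for NFKBIA it was -0.22 with a 95% interval from -0.43 to -0.02, and for REL -0.13 with an interval from -0.43 to 0.17. IRF4 also differed between these lines in its change (0.62 ± 0.09, adjusted p = 0.00091), falling less in MM1R.

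KMS-12-BM and KMS-12-PE responded differently. Of the 10 members 6 differed in their change, all with the lower value in KMS-12-BM, beside 23% of all genes in either direction. The differences, KMS-12-BM minus KMS-12-PE, were -0.77 ± 0.09 for BIRC3 (adjusted p = 2.4e-06), -0.67 ± 0.07 for RELB (1.1e-06), -0.55 ± 0.10 for NFKBIA (0.00040) and -0.40 ± 0.11 for TNFAIP3 (0.012). MAP3K14 (-0.29 ± 0.09, adjusted p = 0.023) and NFKB2 (-0.27 ± 0.09, adjusted p = 0.037) followed. The MAP3K14 call was lost without KMS-12-BM CTRL replicate 1 or KMS-12-PE CTRL or siIRF4 replicate 3 (adjusted p = 0.067 to 0.070), and that of NFKB2 without any of 7 libraries of these lines (0.053 to 0.11). IRF4 fell less in KMS-12-BM (difference 0.37 ± 0.09, adjusted p = 0.0067). Over all genes, 2402 changes were higher and 1074 lower in KMS-12-BM than in KMS-12-PE with TPM as deposited, and 1739 and 1582 with median-of-ratios scaling.

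Markers of other cells moved with siIRF4 in KMS-12-PE. The 5 stromal markers summed to 56.2 to 85.6 TPM in CTRL and 19.1 to 26.7 TPM in siIRF4, the 5 myeloid markers to 147.1 to 183.2 and 36.3 to 51.5 TPM, and the 4 epithelial markers to 223.5 to 245.1 and 163 to 183.8 TPM. Within the epithelial list KRT5 went from 55.8 to 17.4 TPM and KRT14 from 52.3 to 15.7 TPM, but EPCAM was at 129.1 TPM in CTRL and 138.6 TPM in siIRF4. In MM1S the stromal sum was 55.5 to 122.2 TPM in CTRL and 61.8 to 81.8 TPM in siIRF4. The 5 T and NK cell markers summed to 9.74 to 11.4 TPM in KMS-12-PE CTRL and 27.05 to 31.1 TPM in siIRF4, and to 5.75 to 7.21 and 9.09 to 13.9 TPM in MM1S. Most of these sums was CD3E (9.51 and 26.5 TPM in KMS-12-PE), and CD3D was at 0.145 and 0 TPM in KMS-12-PE. Their part in the changes of RELB, BIRC3, NFKB2, NFKBIA and TNFAIP3 in KMS-12-PE, and of the members in MM1S, was not tested. In MM1R, S100A9 was at 24.8 TPM in CTRL and 94.7 TPM in siIRF4, with S100A8 at 0 and all 5 stromal markers under 1 TPM in both. In KMS-12-BM none of the 5 stromal or 5 myeloid markers reached 1 TPM in either group. In bulk libraries, fewer cells of a type and less RNA per cell cannot be told apart. Whether these markers came from cells of the line or from RNA or reads of another sample was not tested.

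The MM1 lines as a pair differed from the KMS-12 lines in the change of 7 members, beside 44.9% of all genes. REL (0.34 ± 0.10, adjusted p = 0.0094), TNFAIP3 (0.45 ± 0.08, 7.8e-05), NFKBIA (0.30 ± 0.07, 0.0014), TRAF3 (0.25 ± 0.05, 0.00081), NFKB1 (0.22 ± 0.05, 0.00056) and MAP3K14 (0.19 ± 0.06, 0.016) had the higher change in the MM1 lines. RELB had the lower one (-0.31 ± 0.05, adjusted p = 4.3e-05). With 0.1 TPM added instead of 1, the REL difference was 0.96, and limma-voom gave 1.10. For NFKBIA and TNFAIP3 the KMS-12 mean joins lines that moved apart.

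The rest of the pathway was read from 7 lists of 106 different genes, of which 94 were tested. In the average of the 4 lines 52 of the 94 rose and 19 fell, beside 33.1% and 26.5% of all genes. The lists overlap with each other in 4 genes. The largest share rose among the ligands and among the adaptors and ubiquitin ligases. For the ligands and for some of the target genes, the filter on low values favours rises.

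**Figure D4:**
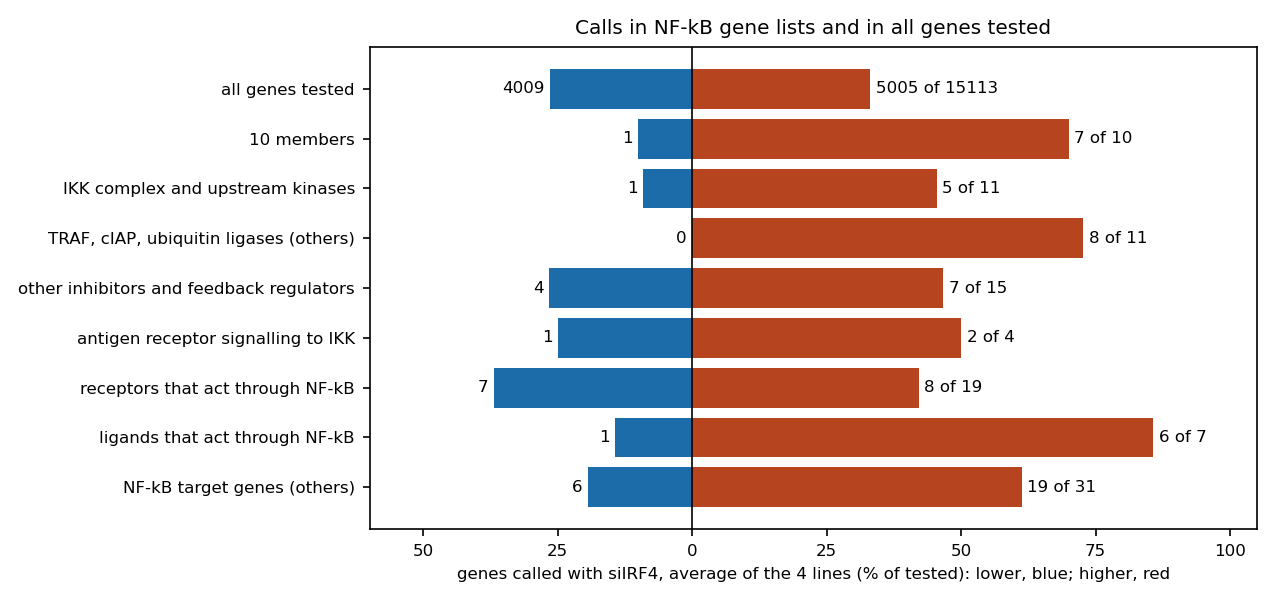
Bars to the right give the share (%) of tested genes that rose and bars to the left the share that fell with siIRF4 in the average of the 4 lines, for all genes tested, the 10 members and 7 lists, with the numbers beside them. All genes gave 33.1% and 26.5%, and 8 of 11 adaptors and ubiquitin ligases rose with none lower.

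Of the ligands that signal to NF-kB 7 of 12 were tested, and 6 rose while CD70 fell in the average (median 0.33). The filter of at least 1 TPM in at least 3 libraries favours rises in this count. TNFSF14, TNFSF13B and IL1B had CTRL means under 1 TPM in every line, and their group means passed 1 TPM only with siIRF4. LTB, which codes for the lymphotoxin beta chain that engages the noncanonical arm, rose in every line, with means of 1.79 and 7.07 TPM in CTRL and siIRF4 of MM1R, 0.385 and 1.74 TPM for MM1S, 38.4 and 87.6 TPM for KMS-12-BM, and 4.04 and 21.6 TPM for KMS-12-PE (average 1.46 ± 0.05, adjusted p = 1.4e-15). LTA rose by 0.40 and TNFSF14 by 0.42 on average, from levels under 1.1 TPM. With 0.1 TPM added these values were 0.84 and 1.12, and by limma-voom 0.94 and 1.37. With a filter of at least 5 TPM on the mean, only 1 gene of this list was called higher, since most of it was no longer tested. CD70, the ligand of CD27, moved apart between the pairs of lines, down from 136.3 to 95.8 TPM in MM1R and from 109 to 68.0 TPM in MM1S, but up from 154.5 to 182.1 TPM in KMS-12-BM and, for KMS-12-PE, from 292.5 to 403.7 TPM, each called.

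Of the receptors and their adaptors 19 of 22 were tested, 8 rose and 7 fell (median 0.06). TNFRSF17 (BCMA), the receptor for APRIL and BAFF on plasma cells, fell in every line, from 857.2 to 526.1 TPM in MM1R and, for KMS-12-PE, from 193.4 to 19.3 TPM, the smallest and the largest of its changes (average -1.71 ± 0.03, adjusted p = 2.4e-19). The toll-like receptor genes TLR1 (0.99) and TLR9 (0.85) rose most, both called in each line, in some at low levels. TLR1 went from 0.123 to 0.544 TPM in KMS-12-BM, and TLR9 from 0.241 to 1.28 TPM in KMS-12-PE and from 0.531 to 2.31 TPM in MM1S. The highest CTRL mean was 8.06 TPM for TLR1, in MM1S, and 23.4 TPM for TLR9, in KMS-12-BM. By limma-voom their averages were 1.52 and 1.58, and that of TLR9 was 1.46 with 0.1 TPM added. TLR1 in KMS-12-BM lost its call without siIRF4 replicate 1 of that line (0.41, adjusted p = 0.061). CD40, a receptor of B cells that feeds both arms, went from 8.25 to 21.0 TPM in MM1R and from 14.2 to 22.9 TPM in MM1S. It was under 0.4 TPM in KMS-12-PE, and its average of 0.51 (adjusted p = 2.4e-08) was 0.29 by limma-voom (adjusted p = 0.14).

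All 11 adaptors and ubiquitin ligases other than members were tested, 8 rose and none fell in the average (median 0.21). TRAF5, which acts with TRAF2, rose most (0.88 ± 0.03, adjusted p = 1.9e-15), from 26.1 to 47.1 TPM in MM1R, 26.2 to 54.4 TPM in MM1S, 4.12 to 7.18 TPM in KMS-12-BM and 5.57 to 12.2 TPM in KMS-12-PE. TRAF1 (0.55) and RBCK1 (0.44), which codes for HOIL-1 of the linear ubiquitin ligase, were also called in each line. The TRAF1 call in KMS-12-BM was lost without CTRL replicate 1 or 2 of that line (adjusted p = 0.051 and 0.066), without siIRF4 replicate 1 (0.27, adjusted p = 0.13) and with only the groups compared in the fit (adjusted p = 0.11). With median-of-ratios scaling and by limma-voom 1 gene of the list fell, as it did without any 1 of 3 libraries, MM1R CTRL replicate 2, KMS-12-BM CTRL replicate 2 or KMS-12-PE CTRL replicate 3.

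The IKK complex and its upstream kinases gave 5 higher and 1 lower of 11 (median 0.07), and 2 lower with median-of-ratios scaling, the replicate block, limma-voom or without MM1R CTRL replicate 2. IKBKE, a noncanonical IKK kinase, rose by 0.38 ± 0.03 (adjusted p = 6.5e-11), MAP3K8 by 0.39 (0.60 with 0.1 TPM added and 0.73 by limma-voom) and RIPK1 by 0.26, and CHUK, the IKK alpha that NIK activates, fell by 0.19 ± 0.02 (adjusted p = 3.6e-07). Among the genes that link antigen receptors to IKK, BCL10 rose (0.16) and MALT1 fell (-0.12). Other inhibitors and feedback regulators gave 7 higher and 4 lower of 15 (median 0.02). BCL3 (0.34), CYLD (0.21) and NFKBIE (0.19) rose most, and NKIRAS1 (-0.18), OTULIN (-0.16) and NFKBIB (-0.15) fell most.

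Of 31 tested target genes other than members 19 rose and 6 fell in the average (median 0.19), beside 33.1% and 26.5% of all genes. By line, 14 were higher and 7 lower in MM1R (25% and 21.2% of all genes), 14 and 3 in MM1S (29.1% and 21.1%), 8 and 4 in KMS-12-BM (11.4% and 6.09%), and 17 and 4 in KMS-12-PE (15.9% and 22.2%). The filter on low values favours rises in these counts too. The group mean of CD69 passed 1 TPM only in KMS-12-PE siIRF4 (2.05 TPM), and that of CXCL8 only in MM1S siIRF4 (3.63 TPM). CD69 is counted as higher in the average and in KMS-12-PE, and CXCL8 in MM1S. The chemokine gene CCL5 rose in each line, most in KMS-12-PE, from 4.92 to 28.9 TPM (average 0.998 ± 0.05, adjusted p = 3.9e-13). The transcription factor gene IRF1 rose from 69.3 to 100.3 TPM in MM1R, 64.0 to 93.6 TPM in MM1S, 6.25 to 12.5 TPM in KMS-12-BM and 10.8 to 19.1 TPM in KMS-12-PE (average 0.68 ± 0.04, adjusted p = 2.0e-12). The chemokine gene CCL3 fell in each line, from 1526 to 443.8 TPM in MM1R and from 360.1 to 57.6 TPM in MM1S (average -1.82 ± 0.11, adjusted p = 2.2e-10), and CCL4 and SDC4 followed with -0.61 and -0.22. By line, CCL4 was called only in the MM1 lines and SDC4 only in MM1R, and the average of SDC4 was not called with 0.1 TPM added (adjusted p = 0.43) or by limma-voom (adjusted p = 0.53). In KMS-12-PE the CCL3 call was lost by limma-voom (adjusted p = 0.052). In KMS-12-PE against KMS-12-BM, 13 of the 31 target genes had the lower change in KMS-12-BM and 3 the higher one, beside 1074 and 2402 of all 15113 genes (1582 and 1739 with median-of-ratios scaling).

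Over the 24 libraries, the non-member gene whose level followed each member most closely had a Pearson r between 0.97 (CHDH with RELB) and 0.996 (FGFRL1 with RELA). REL was closest to RHOC (r = 0.993), NFKB2 to ZNF586 (0.995), TNFAIP3 to SGSH (0.994), MAP3K14 to LRP6 (0.994), TRAF3 to PIK3CD (0.992), NFKBIA to MAF1 (0.989), NFKB1 to PCGF3 (0.979) and BIRC3 to HMG20B (0.973). The libraries share 4 lines, so these values mostly describe levels of lines.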

How the data were processed

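The authors deposited 1 table of TPM values for 25370 rows and 24 libraries. The build hg19 and the tools STAR, featureCounts, FastQC and MultiQC are named, per the submitters' processing notes, without versions. For annotation and strandedness, the choice is not given in the sources used here. A total of 28 rows with dates as symbols and 1 row without a name were dropped. Whole reads were recovered for 20484 genes (tolerance 0.02 reads, at least 6 libraries with a value), covering at least 99.96% of each library's TPM. No replicates were copies of each other (lowest chi-square per degree of freedom 2.10).

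Tests used limma 3.58.1 in R 4.3.3 on log2(TPM + 1) of genes with at least 1 TPM in at least 3 libraries, with 8 group means in 1 fit and an eBayes prior with trend and robust. Calls are two-sided at a Benjamini-Hochberg adjusted p under 0.05 over all 15113 genes. Errors beside log2 changes are SE. The alternatives tried were each library left out in turn, an added 0.1 TPM, no filter or one on a mean of at least 5 TPM, scaling by median of ratios, a prior that was neither trended nor robust, the replicate number as a block, a fit of only the groups compared, and limma-voom on recovered reads. The script was tested on simulated data. Members and lists were chosen with earlier results of these data known. Of each list, up to 3 called genes with the largest rise and 3 with the largest fall in the average could be named. Values were handled in Python 3.11.15 with numpy 2.4.6 and pandas 2.3.3, and plotted with matplotlib 3.10.9.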

Additional observations from a re-analysis of the deposited data

Results flagged for a closer look

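The change with siIRF4 differed between lines in 13 comparisons of members, each by limma's test of the difference of changes on the log2(TPM + 1) scale. Of the 10 members, 6 were called between KMS-12-BM and KMS-12-PE, beside 23% of all genes. For the MM1 against the KMS-12 lines 7 were called, beside 44.9%. Between MM1R and MM1S it was 0, beside 2.47%. Between KMS-12-BM and KMS-12-PE the differences were -0.67 for RELB, -0.27 for NFKB2, -0.55 for NFKBIA, -0.40 for TNFAIP3, -0.77 for BIRC3 and -0.29 for MAP3K14, with adjusted p-values of 1.1e-06, 0.037, 0.00040, 0.012, 2.4e-06 and 0.023. For NFKBIA the lines moved in opposite directions, each past the test. With TPM as deposited, RELB, NFKB2, TNFAIP3 and BIRC3 passed the test only in KMS-12-PE of this pair, and MAP3K14 only in KMS-12-BM.

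Between the mean of the MM1 lines and the mean of the KMS-12 lines, the differences were 0.34 for REL, -0.31 for RELB, 0.22 for NFKB1, 0.30 for NFKBIA, 0.45 for TNFAIP3, 0.25 for TRAF3 and 0.19 for MAP3K14, with adjusted p-values of 0.0094, 4.3e-05, 0.00056, 0.0014, 7.8e-05, 0.00081 and 0.016. REL rose in all 4 lines, and its difference is one of size. Of the 4 lines, RELB was called only in KMS-12-PE and MAP3K14 only in KMS-12-BM.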

How the results depend on the processing

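Among the counts of members, 3 left the 1.5-fold range under a change of processing. In MM1R 3 rather than 6 members rose when only the groups compared entered the fit. NFKB1, NFKBIA and BIRC3 lost their calls there. In KMS-12-BM 4 rather than 2 fell with median-of-ratios scaling and by limma-voom. Over the libraries left out in turn, the members higher in MM1R ranged from 3 to 6 (3 without MM1R CTRL replicate 2 or siIRF4 replicate 1), the members lower in KMS-12-BM from 1 to 2 (1 without CTRL replicate 1 or 3 or siIRF4 replicate 2 or 3), and the members that differed between MM1R and MM1S CTRL from 3 to 5. For the fit of only the groups compared, the scaling, limma-voom and the libraries left out, the cause was not tested. Of the single values of members and comparisons, 1180 kept their status, called or not called, under the settings other than leaving out a library. A further 14 lost a call and 6 gained one. With a library left out 3545 kept their status, 54 lost a call and 1 gained one. Of the values that kept their status, 370 and 1127 were called neither in the main fit nor in the other setting. No called value changed sign. Values past the threshold under neither setting changed sign in 29 of 370 and 59 of 1127 cases, with sizes of at most 0.17 and 0.06.

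With the replicate number as a block, 5 rather than 6 members differed between KMS-12-BM and KMS-12-PE, since NFKB2 had an adjusted p of 0.072, and no other call of a member changed. Same-numbered siIRF4 and CTRL libraries had correlations of their deviations between -0.088 and 0.086, so these values show little pairing by number. The labels do not say whether same-numbered libraries were prepared together. In 2 of 12 cases, both in KMS-12-BM, a library correlated best with its own number.

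Over all genes, 374 differed between MM1R and MM1S in their change, and 171 did so with a pseudocount of 0.1, 183 with the block, 243 with only the groups compared in the fit and 572 by limma-voom. REL in the MM1 lines rests on few reads, and its size depends on the pseudocount.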
